A study of Mus musculus with 6 samples.

Results

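DNA methylation was examined at 10 mouse Sox genes that act in lineage choice rather than in pluripotency: Sox7, Sox17 and Sox18 of endoderm and endothelium, Sox8, Sox9 and Sox10 of the neural crest, and Sox1, Sox4, Sox11 and Sox21 of neural tissue. The members were the measured cytosines of these genes and of 5 kb on each side, which came to 228 of the 232840 cytosines with at least 10 reads in all 6 libraries. They comprised 73 cytosines at the endoderm and endothelial genes, 51 at the neural crest genes and 104 at the neural genes. By position, 84 lay in promoter windows or at gene ends, 92 in gene bodies and 52 in flanks.

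The libraries were made by reduced representation bisulfite sequencing, in which MspI cuts at CCGG, CpG-rich fragments are kept and bisulfite turns unmethylated cytosines into bases read as thymine. They came from 3 DKO AG-haESC lines at passages 32, 31 and 29 (DKO 1, 2 and 3), 2 WT AG-haESC lines at passages 31 and 18 (WT 1 and 2) and 1 sample of round spermatids from testis, the control named by the study, all of the strain C57BL/6. An AG-haESC line is a haploid embryonic stem cell line from an androgenetic blastocyst, so its genome is paternal, and all 5 lines were kept on feeder cells with 2i, a pair of kinase inhibitors. The titles of the DKO lines carry deletions of both the H19 DMR and the IG-DMR, a pair of imprinting control regions. WT 1 and DKO 2 share the line name OG3, and WT 2 and DKO 3 share AGH-2. Nothing in the labels says that the lines came from separate embryos, so p-values measure the spread between these samples only. Round spermatid values are from a single library.

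Sox proteins bind DNA through an HMG box and set cell fate as transcription factors. The starts of many such developmental genes lie in CpG islands, CpG-rich stretches that are generally free of DNA methylation in germ cells and in embryonic stem cells, whether or not the gene is transcribed. Methylation at gene bodies and between genes is high in male germ cells and is low in ES cells kept in 2i.

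Total reads over cytosines of chromosomes 1 to 19 and X lay between 197259540 and 255240416 in the lines and reached 293399609 in round spermatids. At the Sox cytosines the median depth was 280, 267 and 320.5 reads in the DKO lines, 432.5 and 349.5 in the WT lines and 405 in round spermatids. A level is the percentage of reads that were methylated. In the H19 DMR window, 2 to 4 kb before H19, the DKO lines had 0 reads, the WT lines had 22 and 23, and round spermatids had 0. In the IG-DMR window, 12 to 16 kb before Meg3, there were 0, 0 and 62 reads in DKO 1, 2 and 3, 164 and 0 in WT 1 and 2, and 1 in round spermatids. Since a library without a deletion also had 0 reads in each window, these counts are a weak check of the labels. The labels do not give the bounds of the deletions, so the 62 reads of DKO 3 were not set against them.

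The Sox loci were mostly unmethylated in every library. Levels under 1% in all 6 libraries were found at 180 of the 228 cytosines (78.9%), against 63.1% of all cytosines of the series. Levels over 90% in round spermatids were found at 16 (7.02%), against 19.7% of all cytosines, and all 16 belonged to Sox8 and Sox10. Reads summed over the members' promoters or gene ends gave 0.448% ± 0.413 in the lines (SD, n = 5) and 0.144% in round spermatids (95% Wilson interval 0.119 to 0.175). Gene bodies had 0.698% ± 0.327 in the lines and 0.463% in round spermatids (0.420 to 0.511). Flanks had 3.84% ± 2.28 in the lines and 9.13% in round spermatids (8.80 to 9.48). With each cytosine counted equally, the order at gene bodies turned, to 0.450% in the lines and 1.27% in round spermatids. The other averages became 1.29% in the lines and 0.170% in round spermatids at promoters or ends, and 6.41% in the lines and 31.3% in round spermatids at flanks. Intervals cover counting error only: PCR copies of a molecule were not told apart, and a read over several cytosines counts at each.

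**Figure D1:**
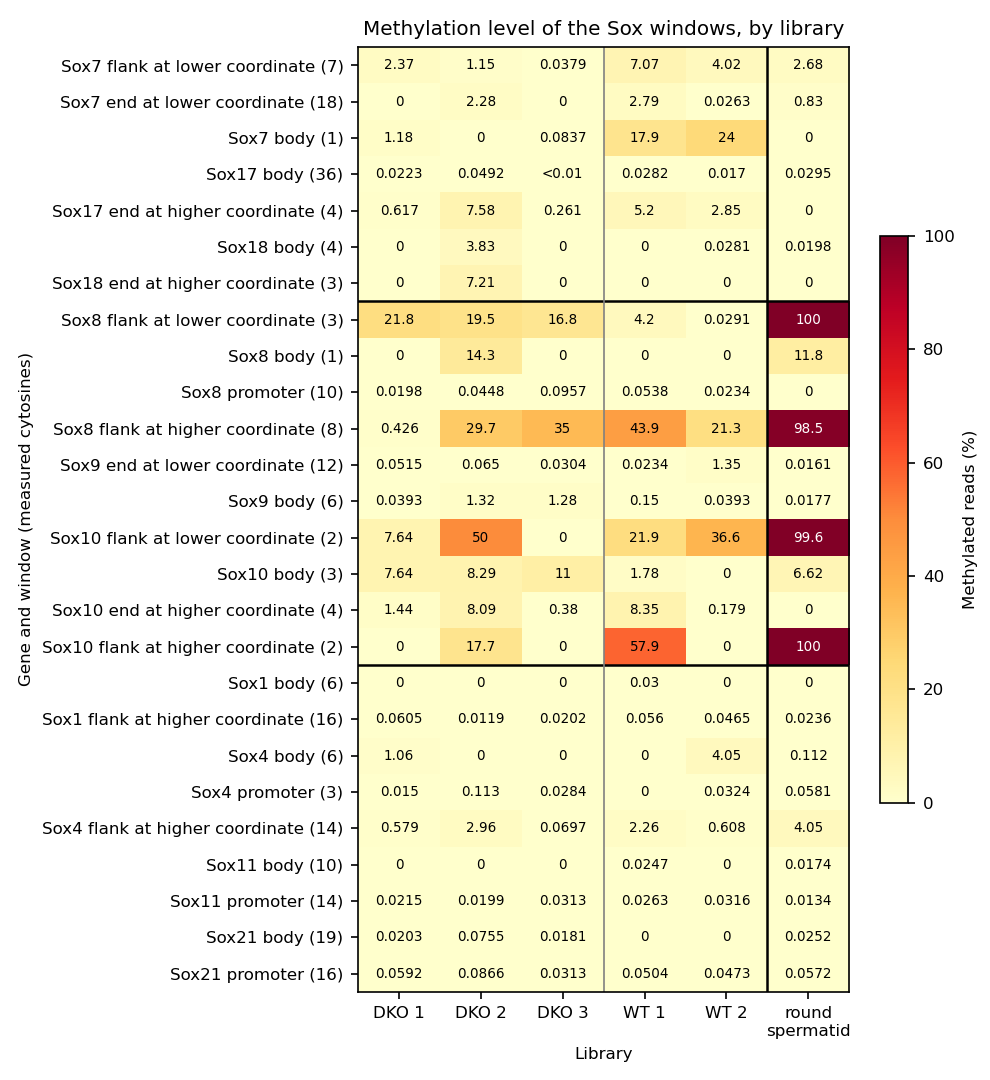
Percentage of methylated reads (colour and printed value) in each window of the 10 Sox genes (rows, with the number of measured cytosines) in the DKO lines, the WT lines and round spermatids (columns). The flanks of Sox8 and Sox10 reach 98.5% to 100% in round spermatids and at most 57.9% in any line, while the windows of Sox1, Sox11 and Sox21 read under 0.1% in every library, some from counts of 0 on few reads.

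The sequences of 2 promoters show which CpGs were read at starts without methylation. Of the 10 genes, 5 had a promoter entry in RefSeq (GRCm38.p6, the assembly also called mm10), each from 250 bases before to 50 after the gene start. Those of Sox8 and Sox21 are given because they hold measured cytosines, and capitals mark the CpGs measured in all 6 libraries. The Sox8 entry is chr17:25570637-25570936, minus strand, with 21 CpGs, 5 of them measured. The Sox21 entry is chr14:118236981-118237280, minus strand, with 22 CpGs, 9 of them measured. 
Sox8: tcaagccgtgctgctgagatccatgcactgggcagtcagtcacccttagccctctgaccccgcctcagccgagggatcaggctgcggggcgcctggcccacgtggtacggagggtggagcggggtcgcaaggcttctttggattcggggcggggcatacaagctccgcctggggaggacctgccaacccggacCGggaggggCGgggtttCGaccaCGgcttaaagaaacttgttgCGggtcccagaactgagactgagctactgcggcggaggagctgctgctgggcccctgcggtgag
Sox21: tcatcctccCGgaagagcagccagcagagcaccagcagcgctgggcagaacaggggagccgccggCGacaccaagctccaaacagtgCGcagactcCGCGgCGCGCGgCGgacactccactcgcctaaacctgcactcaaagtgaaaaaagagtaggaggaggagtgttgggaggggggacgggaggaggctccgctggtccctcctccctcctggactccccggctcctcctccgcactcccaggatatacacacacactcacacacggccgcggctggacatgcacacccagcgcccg
MspI's recognition site CCGG, which reads the same on both strands, occurs 2 times in the Sox8 entry and 3 times in the Sox21 entry, and 52.8% of the 32851 promoter entries of the same length hold it. The median entry has 7 CpGs. Sox1, with 37 CpGs and 1 CCGG, Sox4, with 12 CpGs and no CCGG, and Sox11, with 21 CpGs and 1 CCGG, had no measured cytosine within their 300 bases. Over all such entries, each of the 34196 measured positions was at a CpG.

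Promoters of the 4 genes with a strand and a measured promoter window, taken from 1000 bp before to 500 bp after the start, were all but free of methylation. Sox8, at chr17:25565893-25570686 on the minus strand, encodes a group E Sox factor of neural crest and Sertoli cells. Its promoter (10 cytosines, some of them within Cerox1) was at 0.0198%, 0.0448% and 0.0957% in DKO 1, 2 and 3, at 0.0538% and 0.0234% in WT 1 and 2, and at 0% in round spermatids. A count of 0 there allows up to 0.184%, or more, since a read over several cytosines was counted at each. Sox21 at chr14:118233233-118237030, a group B factor that counteracts Sox1 and its relatives in neural progenitors, had 0.0592%, 0.0866% and 0.0313% in the DKO lines, 0.0504% and 0.0473% in the WT lines and 0.0572% in round spermatids over 16 cytosines. All 16 also lie within the gene Gm4675. Sox11 at chr12:27334268-27342718, a group C factor of neuronal differentiation, had 0.0199% to 0.0316% in the 5 lines and 0.0134% in round spermatids over 14 cytosines. Sox4 at chr13:28948919-28953699, also a group C factor, had 0% to 0.113% in the lines and 0.0581% in round spermatids over 3 cytosines. These 3 also lie within the gene Gm46405.

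For Sox7, Sox9, Sox10, Sox17 and Sox18 the tables used give no strand, so the same window was laid at each gene end and is named by coordinate. Each of these genes had measured cytosines at a single end, which is the known start of the gene in mouse. The 9 promoter or gene end windows with at least 3 cytosines were tested for lines against round spermatids with edgeR's quasi-likelihood test and Benjamini-Hochberg adjustment over all such windows. None was called at an adjusted p under 0.05 and limma called none, against 2.99% of all 10073 windows called by edgeR. All windows include both ends of every gene without a strand, so this background, unlike the 9, is not made of gene starts only. An unadjusted p under 0.05 was found for 0 of the 9 and for 8.46% of all windows. The lowest adjusted p of the 9 was 0.967. Their median difference, lines minus round spermatids, was 0.19 percentage points, against 0.00719 over all windows. It was 0.0142 points without DKO 2, 0.0459 without WT 1, 0.0535 without WT 2, 0.352 without DKO 1 and 0.358 without DKO 3. Sox1, a group B factor of the early neural plate, had no measured cytosine in its promoter.

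Sox17, the group F factor that specifies definitive endoderm and haemogenic endothelium, lies at chr1:4490928-4497426. Its end at the higher coordinate was at 0.617%, 7.58% and 0.261% in DKO 1, 2 and 3, at 5.20% and 2.85% in WT 1 and 2, and at 0% of 376 reads in round spermatids. All 5 lines were thus above the round spermatid library, by 3.30 points on average with an SD of 3.10 among lines, and the window was not called (adjusted p = 0.967, edgeR). Most of the methylation sat at a different cytosine in DKO 2 and in WT 1. Position 4497145 was at 30.6% in DKO 2 and at 0% to 1.15% in the other 4 lines, and 4497159 was at 18.99% in WT 1, 5.61% in WT 2 and 0% to 3.23% in the DKO lines. Position 4497187 was shared by DKO 2 at 5.14% and WT 2 at 3.74%, and 4497189 was at 2.17% in DKO 1, 3.53% in DKO 2 and 0.935% in WT 2. The body, with 36 measured cytosines, was at 0.00579% to 0.0492% in the lines and 0.0295% in round spermatids.

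Sox18, a group F factor of blood and lymphatic vessels at chr2:181669837-181671640, stood out in DKO 2. Its end at the higher coordinate (3 cytosines) was at 7.21% in DKO 2 and at 0% in DKO 1, DKO 3, both WT lines and round spermatids. The body was at 3.83% in DKO 2, at most 0.0281% in the other lines and 0.0198% in round spermatids. Position 181671703 held the methylation of the end window, with 21.6% of 37 reads, and position 181670527 that of the body, with 14.6% of 985 reads. The round spermatid depth at the end window was 14 reads at each of the 3 cytosines, where the Wilson interval of each reaches 21.5%. The 0% of round spermatids there is thus not resolved from the value of DKO 2.

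Sox7, a group F factor of primitive endoderm and early blood vessels, lies at chr14:63943706-63950732. Its end at the lower coordinate (18 cytosines) was at 0%, 2.28% and 0% in DKO 1, 2 and 3, at 2.79% and 0.0263% in WT 1 and 2, and at 0.830% in round spermatids. The lines lay on both sides of the round spermatid value (adjusted p = 0.984, edgeR). At position 63943846 the direction was uniform, with 0% in all 5 lines and 10.7% of 806 reads in round spermatids. The only measured body cytosine, 63948224, was at 1.18%, 0% and 0.0837% in the DKO lines, at 17.9% and 24.0% in the WT lines, against 0% of 293 reads in round spermatids. The WT lines were above the DKO lines and round spermatids there, without overlap, and the fit without a minimum of cytosines did not call it (unadjusted p = 0.0470, adjusted p = 1, edgeR, DKO against WT). In the flank, position 63941705 was at 0% in the DKO lines, at 23.2% and 0% in the WT lines, against 14.1% of 1301 reads in round spermatids.

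**Figure D2:**
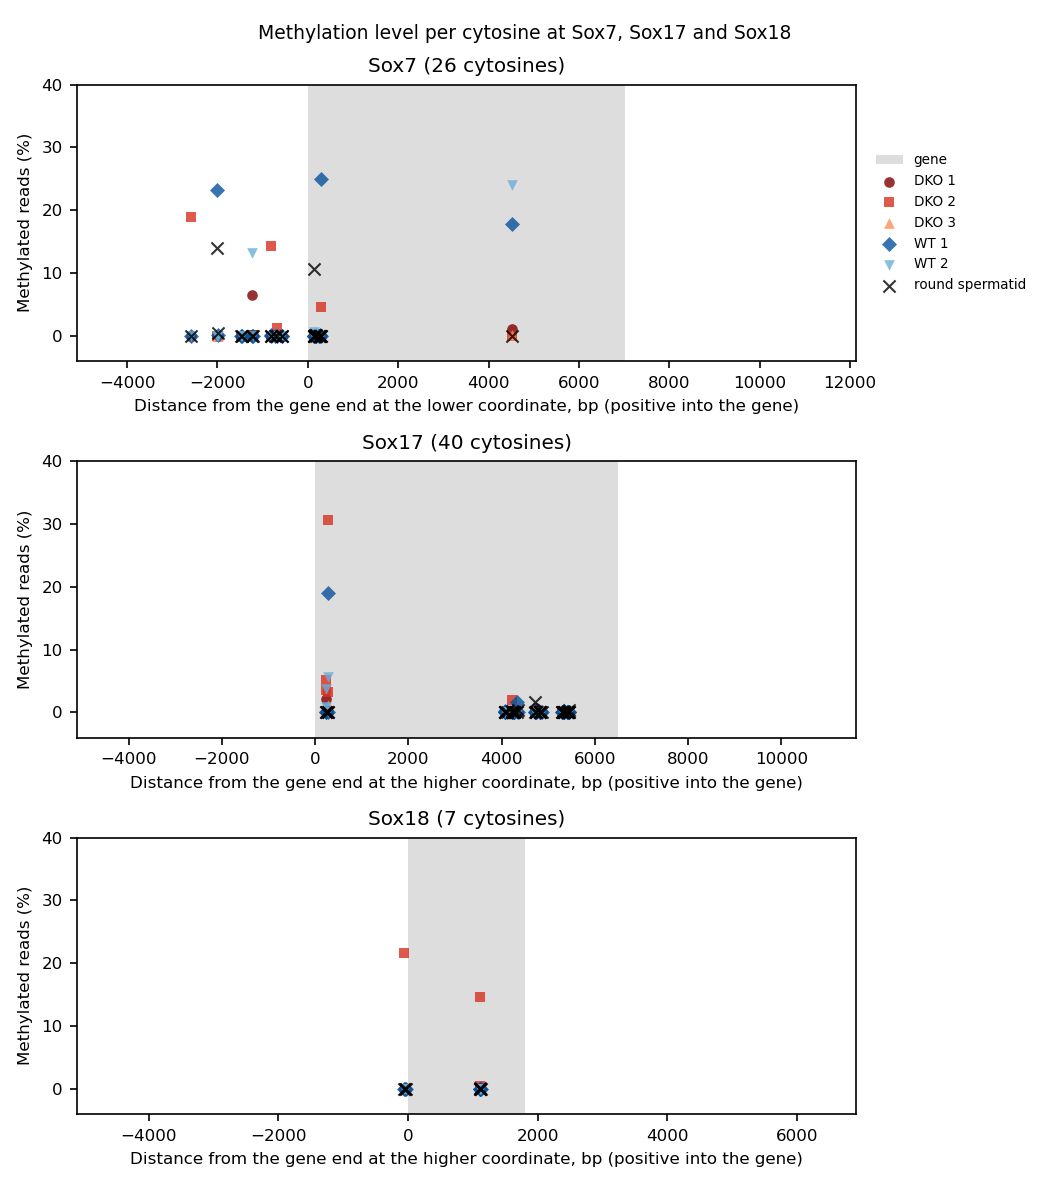
Percentage of methylated reads at each measured cytosine of Sox7, Sox17 and Sox18 (vertical axis, up to 40%) against the distance in bp from the gene end named on the horizontal axis, with the gene in grey. Coloured symbols are the 5 lines and crosses are round spermatids. Isolated cytosines stand high in 1 or 2 lines, up to 30.6% at Sox17, beside neighbours near 0.

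Of the 21 Sox cytosines that were lower in any line than in round spermatids, 17 lay at Sox8 and Sox10, nearly all in flanks. Sox9, Sox11, Sox17, Sox18 and Sox21 had no measured flank cytosine, so flanks cannot be compared over all 10 genes. Sox8 had 11 flank cytosines, all over 90% methylated in round spermatids. In the flank at the lower coordinate, downstream of the gene because Sox8 is on the minus strand, 3 cytosines lie 8880 to 8907 bp from the start. This flank was at 21.8%, 19.5% and 16.8% in DKO 1, 2 and 3, at 4.20% and 0.0291% in WT 1 and 2, and at 100% of 1215 reads in round spermatids (Wilson interval from 99.7). All 5 lines were far below round spermatids, and the difference of -87.5 points was called (adjusted p = 0.0213, edgeR). The call rests on assuming that the lone round spermatid library varies like the lines, and on a fixed dispersion chosen on simulated data. In that simulation, false calls against the lone library passed the nominal share when few windows were changed. The call was lost with an estimated common dispersion (adjusted p = 0.0771, edgeR). That setting called 7.62% of all flanks, but it recovered no change in flanks simulated with a lone library. The simulated flanks thus differ from the real ones, and they do not tell whether the lost call is a failure of the setting.

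The upstream flank of Sox8 has 8 measured cytosines between -4072 and -3879 bp from the start, within the gene Cerox1. It was at 0.426%, 29.7% and 35.0% in the DKO lines, at 43.9% and 21.3% in the WT lines, against 98.5% in round spermatids. The lines did not overlap with round spermatids, with a difference of -72.4 points and an SD of 16.5 among lines, and the window missed the threshold (adjusted p = 0.115, edgeR). With the promoter begun 500 bp before the start, unmethylated cytosines joined this flank and the difference was -14.3 points. Residual methylation differed between neighbouring cytosines within a line. In DKO 3 the 5 cytosines nearest to the gene had 50% to 71.4% of 24 to 28 reads, and the 3 farther ones had 0% of 29 reads. In WT 2 the reverse held, with 0% to 7.25% at the nearer 5 and 22.6%, 4.33% and 70.0% at the farther 3.

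The single body cytosine of Sox8 was at 0%, 14.3% and 0% in DKO 1, 2 and 3, at 0% in both WT lines, and at 11.8% of 815 reads in round spermatids. From the downstream flank through the body to the promoter, round spermatids thus read 100%, 11.8% and 0%, and upstream again 98.5%.

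Sox10, a group E factor that maintains neural crest progenitors and specifies glia and melanocytes, lies at chr15:79154913-79164490. Its flank at the lower coordinate (2 cytosines, within the gene Polr2f) was at 7.64%, 50% and 0% in DKO 1, 2 and 3, at 21.9% and 36.6% in WT 1 and 2, and at 99.6% in round spermatids. Its flank at the higher coordinate (2 cytosines) was at 0%, 17.7% and 0% in the DKO lines, at 57.9% and 0% in the WT lines, against 100% in round spermatids, where 14 reads per cytosine give each a Wilson interval from 78.5. Every line was below round spermatids in both flanks. These flanks have fewer than 3 cytosines and entered only the fit without that minimum, which called neither (adjusted p = 0.0988 at the lower and 0.675 at the higher coordinate, edgeR).

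Within Sox10, position 79159188 was at 15.3%, 5.10% and 18.9% in the DKO lines, at 9.77% and 0% in the WT lines, against 99.6% of 281 reads in round spermatids. It was the only body cytosine among the 10 genes with more than 90% in round spermatids. The other 2 body cytosines of Sox10 were near 0 in round spermatids, so the body window as a whole stood at 6.62%, inside the range of 0% to 11.0% in the lines.

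The end of Sox10 at the higher coordinate (4 cytosines) went the other way. It was at 1.44%, 8.09% and 0.380% in DKO 1, 2 and 3, at 8.35% and 0.179% in WT 1 and 2, and at 0% of 1146 reads in round spermatids (adjusted p = 0.967, edgeR). It had the highest mean over the lines of the members' promoters or ends, 3.69% ± 4.17 (SD, n = 5). Position 79164123 was at 66.1%, 67.4% and 58.3% in the DKO lines, at 36.4% and 18.2% in the WT lines, against 0% in round spermatids. Its depth was 62, 43 and 12 reads in the DKO lines, 11 and 22 in the WT lines and 15 in round spermatids, where the Wilson interval reaches 20.4%. It was called higher than in round spermatids in 3 lines, more than any other Sox cytosine, and it does not reach a minimum of 20 reads in all libraries. A neighbour 20 bp away, position 79164143, was at 3.23%, 11.6% and 0% in the DKO lines, and at 0% in the WT lines and round spermatids. By Euclidean distance over the 6 libraries, the ends or promoters most like that of Sox10 among 10482 windows were those of Gm30340 (distance 1.58 points), Gm32297 (2.52) and Scarb1 (2.70).

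Sox9, a group E factor of cartilage, neural crest and Sertoli cells at chr11:112782210-112787757, was close to 0. Its end at the lower coordinate (12 cytosines) was at 0.0515%, 0.0650% and 0.0304% in the DKO lines, at 0.0234% and 1.35% in the WT lines, against 0.0161% in round spermatids. The value of WT 2 came from position 112781360, which was methylated in 80.7% of its 228 reads there and in 0% of the reads of the other 5 libraries. The body (6 cytosines) was at 0.0393%, 1.32% and 1.28% in the DKO lines, at 0.150% and 0.0393% in the WT lines, against 0.0177% in round spermatids. Position 112783862 accounts for the body values of DKO 2 and DKO 3, with 10.5% and 10.02%.

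**Figure D3:**
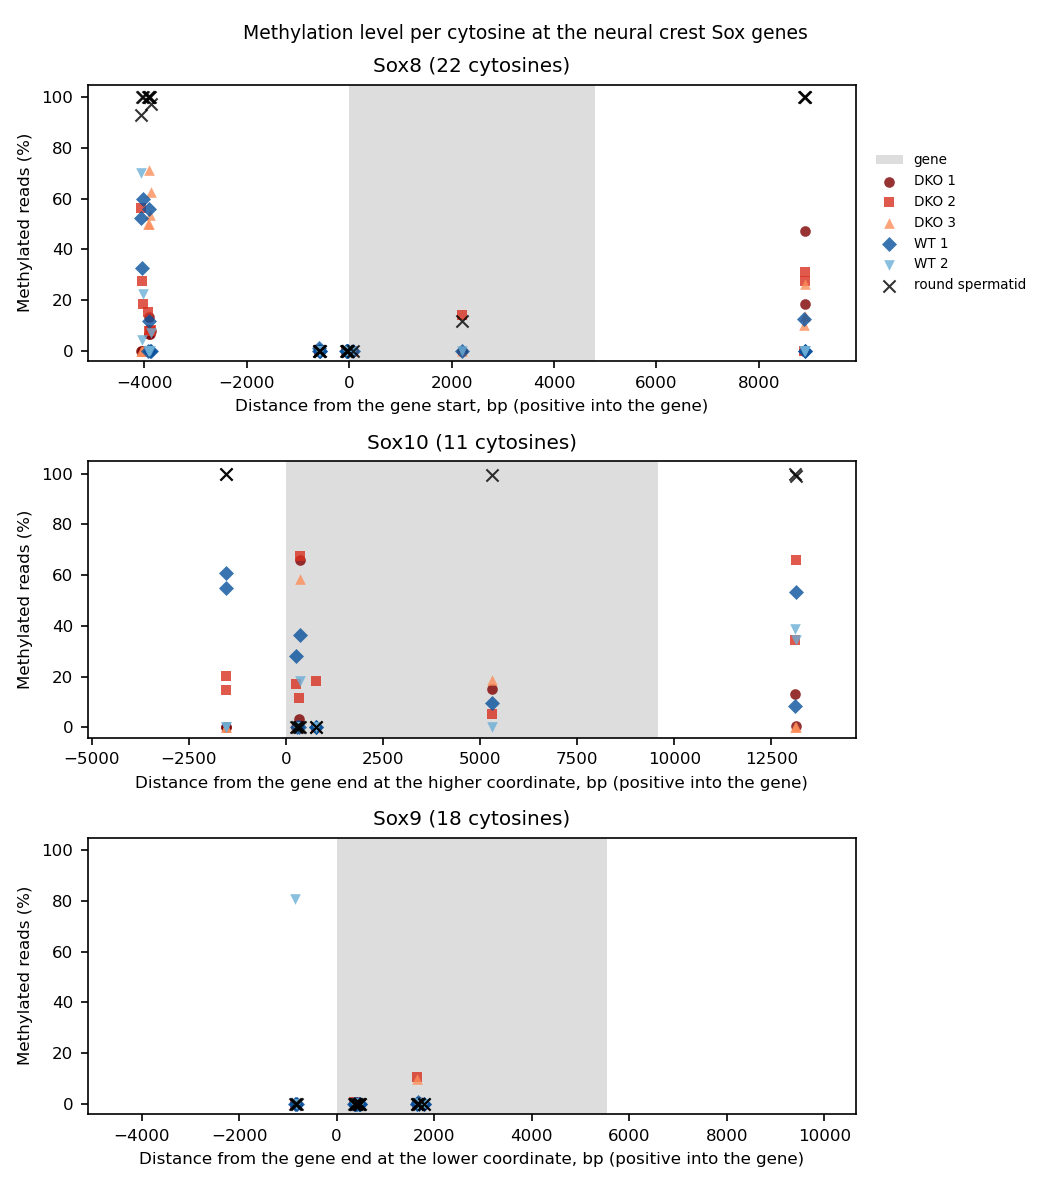
Percentage of methylated reads at each measured cytosine of Sox8, Sox10 and Sox9 (vertical axis) against the distance in bp from the gene start or the gene end named on the horizontal axis, with the gene in grey. Coloured symbols are the 5 lines and crosses are round spermatids, which are near 100% in the flanks of Sox8 and Sox10 and at 0 around their starts, while the lines are spread between 0 and 71.4% in these flanks.

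The 16 cytosines over 90% in round spermatids averaged 8.06%, 21.3% and 22.3% in DKO 1, 2 and 3, 25.8% and 11.1% in WT 1 and 2, and 99.3% in round spermatids. Over all 45982 such cytosines of the series the averages were 17.7%, 24.5% and 17.4% in the DKO lines, 27.0% and 14.2% in the WT lines and 99.6% in round spermatids. The highest value of any line at the 16 was 71.4%. Every one of the 16 was under 1% in at least 1 line, as were 84.5% of all such cytosines. None was over 50% in every line, against 0.381% of all such cytosines, and 2 (12.5%) were under 20% in every line, against 21.0%.

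At the neural genes, 97 of 104 cytosines (93.3%) were under 1% in all 6 libraries. Every measured window of Sox1, Sox11 and Sox21 read under 0.1% in all 6 libraries, though some values are counts of 0 on few reads. The Sox1 body in DKO 1 had 17 reads at each of 6 cytosines, and 0 of the summed 102 allows up to 2.94%. Sox1, at chr8:12395519-12399555 on the plus strand, had 6 measured body cytosines and 16 in the flank at the higher coordinate, which averaged 0.0390% ± 0.0218 in the lines and 0.0236% in round spermatids. All of these Sox1 cytosines also lie within the gene Sox1ot. Sox4 was the exception. Its upstream flank (14 cytosines, within Gm46405) was at 0.579%, 2.96% and 0.0697% in the DKO lines, at 2.26% and 0.608% in the WT lines, against 4.05% in round spermatids, with all 5 lines lower but no call (adjusted p = 0.315, edgeR).

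A pair of Sox4 flank cytosines 24 bp apart carried this difference. Position 28954934 was at 14.5%, 20.6% and 13.2% in the DKO lines, at 50.2% and 57.7% in the WT lines, against 74.5% in round spermatids. Position 28954958 was at 0%, 40.3% and 0% in the DKO lines, at 0.738% and 0.571% in the WT lines, against 50.8% in round spermatids. Position 28958678 of this flank went the other way in DKO 2, at 26.7% of 300 reads. It was at 0% in the other 4 lines and at 0.188% in round spermatids. In the Sox4 body, position 28950794 was at 22.9% of 70 reads in WT 2, at 0% in the other 4 lines and at 0.714% in round spermatids.

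Among gene bodies, 8 windows had at least 3 cytosines and none was called between lines and round spermatids by edgeR or limma, or had an unadjusted p under 0.05. Over all 9764 body windows 29.8% were called by edgeR and 39.1% had an unadjusted p under 0.05. The median body level was 0.295% in the lines and 0.0225% in round spermatids at the Sox genes, against 4.67% in the lines and 7.98% in round spermatids over all bodies. Among flanks, 1 of 5 tested windows was called, that of Sox8 at the lower coordinate, and 2 had an unadjusted p under 0.05, as did 28.4% of all flanks. Over all flank windows 17.6% were called, 16.9% as lower, so 1 of 5 is near the background. By a rule of size, a difference of at least 10 points with round spermatids outside the range of the lines, both Sox8 flanks counted as lower, and 27.4% of all flanks did.

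Each line was then set against round spermatids cytosine by cytosine, with a two-sided Fisher's exact test adjusted over all 232840 cytosines and a difference of at least 10 points. Such a test compares 2 libraries, not conditions. Of the 228 Sox cytosines, 21, 20 and 21 were lower in DKO 1, 2 and 3, and 20 and 21 in WT 1 and 2. The background was 23.6%, 23.1%, 23.3%, 22.5% and 23.9% of all cytosines in the same order of lines, against 8.77% to 9.21% of the Sox cytosines. Summed over the lines, these were 103 lower calls, and 68 with a minimum of 20 reads. At that minimum, flank cytosines of Sox8 and Sox10 with fewer reads in some library were no longer compared. Higher calls numbered 1, 8 and 2 in the DKO lines and 4 and 4 in the WT lines, beside a background of 2.5%, 4.01%, 2.44%, 4.48% and 2.16%.

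Of the 21 cytosines lower in any line, 19 (90.5%) were lower in all 5, against 78.2% of the 58168 such cytosines of the series. The 21 were 12 at Sox8, 5 at Sox10, 2 at Sox4 and 2 at Sox7. Of the 14 cytosines higher in any line, 10 (71.4%) were higher in 1 line, 3 in 2 lines, 1 in 3 lines and 0 in all 5, while 56.7% of the 21091 such cytosines of the series were higher in 1 line. By group, 17 of 51 neural crest cytosines were lower in some line and 5 higher, beside 24.98% of all cytosines lower in some line. In DKO 1 these were 15 of 15 flank and 2 of 10 body cytosines and 0 of 26 at promoters or ends, and 0 of 18 at Sox9. At the endoderm and endothelial genes 2 of 73 were lower and 7 higher, and at the neural genes 2 of 104 were lower and 2 higher. Over the whole series, 21091 of 232840 cytosines were higher in some line. The higher counts at the neural crest and at the endoderm and endothelial genes are near that share, and the count at the neural genes is below it. Of the 19 higher calls summed over lines, 13 had another measured cytosine within 20 bp, and in 10 of these 13 (76.9%) it was under 1% in the same line, against 43.9% for all higher calls of the series.

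**Figure D4:**
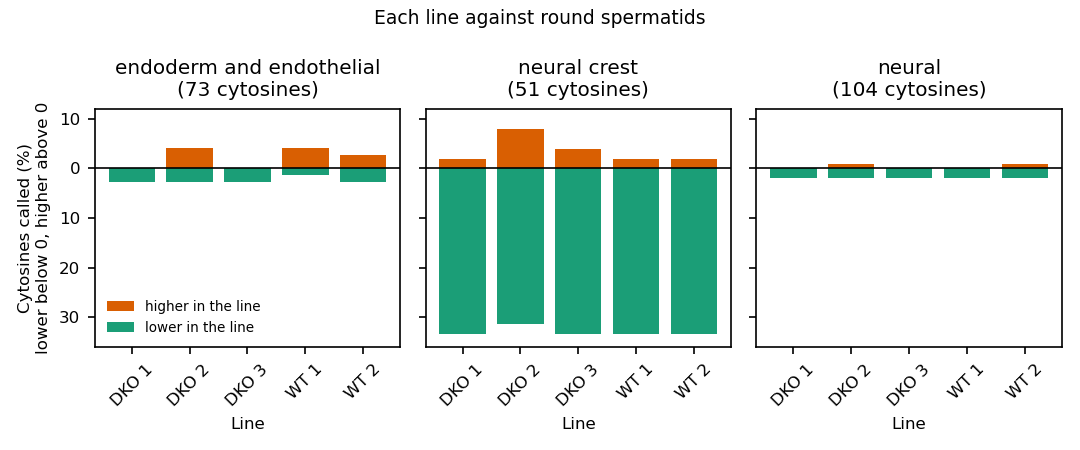
Percentage of measured cytosines called lower (below 0) or higher (above 0) in each line than in round spermatids (vertical axis), for the endoderm and endothelial, neural crest and neural Sox genes, with DKO lines left of WT lines. Between 31.4% and 33.3% of the neural crest cytosines were lower in each line, against at most 2.74% in the other groups and 22.5% to 23.9% of all cytosines. The neural crest calls come from Sox8 and Sox10, mainly their flanks, and Sox17 and Sox18 have no measured flank.

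DKO and WT lines were compared without the round spermatids, which asks whether lines that carry the deletions differ at these loci. The median difference, DKO minus WT, was -0.00471 points over the Sox promoters or ends, against 0.0101 over all windows. No Sox window was called by edgeR or limma among 9 promoter or gene end windows, 8 bodies and 5 flanks, where 0.182%, 0% and 0% of all windows of these kinds were called. An unadjusted p under 0.05 was found for 1 end, 0 bodies and 1 flank, beside 7.19%, 2.96% and 2.98% of all windows. The end was that of Sox9, where WT 2 alone was high, and it was called once WT 1 was left out (adjusted p = 0.0231, edgeR). The flank was that of Sox8 at the lower coordinate, with a mean of 19.4% ± 2.54 in DKO lines (SD, n = 3) and 2.12% ± 2.95 in WT lines (SD, n = 2), a difference of 17.2 points (unadjusted p = 0.0264 and adjusted p = 1 in edgeR's model).

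Among windows with at least 3 cytosines, DKO and WT lines did not overlap in 0 of 9 ends, 2 of 8 bodies and 2 of 5 flanks, beside a background of 16.5%, 15.5% and 15.1%. The bodies were those of Sox10, at 7.64%, 8.29% and 11.0% in the DKO lines and 1.78% and 0% in the WT lines, and of Sox21, under 0.1% throughout. No single body cytosine of Sox10 kept DKO and WT lines apart. The value of DKO 2 came mainly from position 79163720, at 18.1% of 1207 reads there and at 0% in the other lines. At position 79159188, DKO 2 (5.10%) lay below WT 1 (9.77%). The flanks were the Sox8 flank above and that of Sox7, at 2.37%, 1.15% and 0.0379% in the DKO lines and 7.07% and 4.02% in the WT lines. No single cytosine of this Sox7 flank kept DKO and WT lines apart. The value of WT 1 came from position 63941705, at 23.2% in WT 1 and 0% in WT 2. That of WT 2 came from position 63942474, at 13.1% in WT 2, 0% in WT 1 and 6.45% in DKO 1. The Sox7 flank thus went the opposite way from the Sox8 flank at the lower coordinate and the Sox10 body, and none of the 4 was called. This contrast does not extend to Sox8 and Sox10 as genes. The upstream Sox8 flank and the Sox10 flanks had lower means in DKO than in WT lines, as the Sox7 flank did, with DKO and WT lines overlapping.

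Related genes were examined at their promoters or gene ends as well. Among 9 other Sox genes, 5 were measured, and they averaged 0.414% ± 0.699 in the lines (SD, n = 5) and 0.0979% in round spermatids. Of 23 endoderm and endothelial regulators such as Gata4 and Foxa2, 10 were measured, with 0.953% ± 0.3003 in the lines and 0.157% in round spermatids. Of 13 neural crest regulators 7 were measured, with 1.26% ± 1.88 in the lines and 0.231% in round spermatids. Of 13 neural regulators 6 were measured, with 0.0327% ± 0.0197 in the lines and 0.0270% in round spermatids. The median differences between lines and round spermatids were 0.00715, 0.206, 0.107 and 0.00704 points for the 4 lists in this order, against 0.00719 over all windows. Those between DKO and WT lines were 0.0300, 0.148, 0.0934 and 0.0113 points, against 0.0101 over all windows. None was called for lines against round spermatids or for DKO against WT lines by edgeR or limma. An unadjusted p under 0.05 was found for 3 of the 10 endoderm and endothelial regulators against round spermatids, where 8.46% of all windows had one. It was found for 1 of the 10 between DKO and WT lines, where 7.19% of all windows had one, and for 0 genes of the other lists.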

How the data were processed

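Per the labels' protocols, DNA was cut with MspI, joined to methylated adapters, size-selected on a gel, treated with bisulfite and amplified. Bismark 0.12.2 and the build mm10 stand in the submitters' processing notes; how reads were trimmed or deduplicated is not given in the sources used here. Per the file headers, the deposited tables hold a count of methylated and a count of unmethylated reads per position, and the authors' methylation level as a fraction, which was not used further. The Sox members and gene lists were chosen with earlier results of these data known.

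Reads were summed per window over cytosines with at least 10 reads in all 6 libraries: promoter (1000 bp before to 500 bp after the start), body, and flanks of 5 kb without the promoter. Gene positions came from a RefSeq table (GRCm38.p6), and strand from RefSeq promoter entries. For genes without a strand, both ends entered the background of promoter or gene end windows. All windows with at least 3 cytosines were fitted per kind with edgeR 4.0.16 in R 4.3.3 (quasi-likelihood, a term per library, negative binomial dispersion fixed at 0.05, a value chosen on simulated data, where false calls against the lone library passed the nominal share when few windows were changed). limma 3.58.1 on log2((methylated + 1)/(unmethylated + 1)) was an alternative. Fisher's exact tests used a purpose-written routine that was checked against scipy 1.17.1, and Wilson intervals came from statsmodels. All 10 members are named; of other lists, at most 3 called genes were to be named, and none was called. The 3 windows most like the member end with the highest mean over lines were named by distance. The replicate block used the line names shared in the titles, which pair only 2 WT with 2 DKO lines, and whether the pairs share an origin is not stated. Other coverage minimums, window sizes, cytosine minimums and left-out lines were tried as alternatives. Scripts were tested on simulated data.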

Additional observations from a re-analysis of the deposited data

Results flagged for a closer look

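In 9 of 26 windows checked, a single line stood far from the other 4, by a gap to its nearest neighbour over the whole range above Dixon's 95% value for 5 samples. For normally spread values chance flags about 1 in 20, a share that does not carry over to windows where most lines are tied at or near 0, as here. DKO 2 stood apart at the Sox18 body (3.83%, against 0% to 0.0281% in the other lines), at the Sox18 end at the higher coordinate (7.21%, against 0%) and at the Sox8 body (14.3%, against 0%). WT 2 stood apart at the Sox9 end at the lower coordinate (1.35%, against 0.0234% to 0.0650%) and at the Sox4 body (4.05%, against 0% to 1.06%). The other 4 were of a few reads: DKO 2 at the Sox4 promoter (0.113%) and the Sox21 body (0.0755%), and WT 1 at the Sox1 body (0.0300%) and the Sox11 body (0.0247%).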

How the results depend on the processing

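Between lines and round spermatids, the count of called Sox flanks was 1, and it was 0 with at least 5 cytosines per window (the Sox8 flank has 3), 0 with an estimated common dispersion, chosen after seeing the data, and 2 by the rule of size. The Sox8 flank kept its call in 10 of 11 alternatives, with adjusted p from 0.00401 to 0.0771. Apart from limma and the estimated common dispersion, these alternatives used the same fixed dispersion, for which simulated false calls could pass the nominal share. Leaving out each line in turn gave 1 call throughout. The upstream Sox8 flank fell to -14.3 points with a promoter of 500 bp before the start, as unmethylated cytosines then join it. Between DKO and WT lines, promoter or end calls were 0 to 1 when a line was left out: without WT 1, the Sox9 end was called (-1.31 points, adjusted p = 0.0231), with WT 2 as the lone WT line assumed to vary like the others. The replicate block by shared line name gave 0 calls, as without it. Lower calls summed over lines were 103, and 68 at 20 reads, where flank cytosines of Sox8 and Sox10 with fewer reads were no longer compared. Higher calls were 19, and 8 at 25 points and 31 with coverage asked of the line and round spermatids only, an alternative added after seeing the data. With each cytosine weighing the same, levels were 1.29% in the lines at promoters or ends (0.448% by reads), 6.41% in the lines and 31.3% in round spermatids at flanks (3.84% and 9.13% by reads), and 0.450% in the lines and 1.27% in round spermatids at bodies (0.698% and 0.463% by reads), where the order turned. All other alternatives for the tested windows, 251 for lines against round spermatids and 272 for DKO against WT, kept the same side of the threshold, or a difference too small to be given a direction. Depth limits the Sox18 end and the Sox10 flank at the higher coordinate, with 14 round spermatid reads at each cytosine.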

Other observations

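With coverage asked only of a line and of round spermatids, 312 to 388 Sox cytosines were compared per line, and 5.67% to 7.49% were lower and 0.962% to 2.42% higher than in round spermatids, beside 22.6% to 24.3% lower and 2.11% to 4.44% higher over all cytosines. This comparison was chosen after seeing the data. Among the other Sox genes, Sox14, a group B factor of the nervous system, stood at 7.44% in DKO 2 at its promoter, at 0.0986% and 0.0515% in DKO 1 and DKO 3, at 0.180% and 0.347% in WT 1 and 2, and at 0.106% in round spermatids.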
